A study of Mus musculus with 18 samples.

Results

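The early growth response (EGR) transcription factors *Egr1*, *Egr2*, and *Egr3*, their co-repressors *Nab1* and *Nab2*, and the immediate early genes *Ier2*, *Ier3*, *Ier5*, and *Phlda1* were followed in brown preadipocytes treated with FGF6. These 9 genes were chosen by name, by matching the Ensembl identifiers of the count table to GENCODE symbols, out of 48023 genes in the table. All 9 passed the filter on low counts, which left 15071 genes for testing. The cells were an immortalized murine brown preadipocyte line, a precursor of brown fat that was kept undifferentiated in growth medium with serum. They received vehicle (Veh) or FGF6, a paracrine fibroblast growth factor, at 200 ng/ml for 4, 8, or 24 h. RNA-seq was performed on 3 libraries in each of the 6 groups, 18 in all, and every group was the same line in the same medium, so the vehicle group of each time point was the background for FGF6 at that time. The question asked here was how far, and for how long, these genes differed between FGF6- and vehicle-treated cells. Levels before 4 h were not measured.

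Immediate early genes are transcribed within minutes of a growth factor signal without new protein synthesis, and in most cells their mRNA falls again within a few hours. FGF receptors signal through the RAS–MAPK cascade to the nucleus, where ELK proteins bound with serum response factor (SRF) switch on EGR and FOS genes. EGR proteins are zinc-finger activators that bind GC-rich sites, and the NAB proteins bind to them and repress their activity.

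Total counts per library lay between 24327816 and 33471980, and each of the 18 libraries was nearest to the mean of its own group. Vehicle replicate 3 at 24 h stood apart, with a chi-square per degree of freedom of 37.96 over genes against its nearest replicate, compared with 2.44 to 5.41 in the other 17 libraries. Results that it changes are given with and without it. Of the 6 preadipocyte and stromal markers, 5 were expressed and *Dlk1* had no count in any library. Their summed level lay between 1127 and 1327 CPM, the counts scaled to a common library total, in the 9 vehicle libraries and between 889 and 931 CPM at 4 h, 749 and 817 CPM at 8 h, and 350 and 364 CPM at 24 h with FGF6. *Cd34*, 1 of the 5, went the other way, with means of 16.5 CPM for vehicle and 43.0 CPM for FGF6 at 24 h. Among mature adipocyte markers, *Fabp4* made up most of the summed 63.9 to 174 CPM, whereas *Adipoq* stayed under 1 CPM. *Ucp1* had 17 to 25 counts in the FGF6 libraries at 24 h and none in the other 15 libraries, while *Fabp4*, *Adipoq*, and *Plin1* were lower with FGF6 at 24 h. The immune cell markers *Ptprc* and *Adgre1* had at most 2 counts in any library, and the endothelial marker *Pecam1* at most 7. Over all libraries the 5 immune markers summed to between 3.36 and 19.1 CPM, the 4 endothelial markers to between 0.377 and 5.65 CPM, and the 3 muscle markers to between 1.60 and 8.96 CPM. *Cd68* made up most of the immune sum, with means of 11.1 CPM for vehicle and 16.5 CPM for FGF6 at 4 h. At 24 h its means were 5.83 and 3.24 CPM. *Csf1r* had 3.65 CPM with vehicle and 1.41 CPM with FGF6 at 4 h, and 1.32 and 0.376 CPM at 24 h. The endothelial gene *Cdh5* had a mean of 3.59 CPM (SD 0.638, n = 3) in the 24 h FGF6 libraries, against 0.0582 CPM (SD 0.0505) in those of vehicle. At that time *Kdr* was at 1.09 and 0.823 CPM and was not called (adjusted p = 0.281), and *Tek*, which was not tested, had no count with FGF6 and 3 to 8 counts with vehicle. The part of these shifts in the results on the 9 genes was not tested. In bulk RNA, fewer cells of a type and less RNA per cell cannot be told apart, and whether the 3 libraries came from separate cultures is not stated, so that p-values measure only the spread between these libraries.

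FGF6-treated cells had more mRNA of the 3 EGR factors, the 3 IER genes, and *Phlda1* at 4 h and 8 h, by 2.12- to 17.5-fold, and less of *Nab1* at both times. At 24 h, all 9 genes were higher with FGF6, but 5 of them by at least 2-fold. Ranges of the 3 FGF6 libraries and the 3 vehicle libraries did not overlap for any of the 9 genes at any time, a separation that 66.2% of all tested genes showed at 4 h, 73.8% at 8 h, and 74.8% at 24 h. Calls were made at an adjusted p under 0.05, with the quasi-likelihood test of edgeR and adjustment by Benjamini-Hochberg over all tested genes. At 4 h, 7 of the 9 genes were called higher and 2 lower, against 28.6% higher and 34.2% lower among all tested genes. At 8 h, 7 were higher, 1 was lower, and 1 was not called, against 32.4% higher and 38.4% lower among all tested genes. At 24 h, all 9 were higher and 0 lower, against 35.9% and 37.9%. A call together with a rise of at least 2-fold was made for 7 of the 9 at 4 h, 7 at 8 h, and 5 at 24 h, whereas 4.96%, 7.39%, and 7.44% of all tested genes met it. Without vehicle replicate 3 at 24 h, all 9 were still called higher at 24 h, and *Egr2* passed the 2-fold line (log2 1.04). *Egr2* also passed it without any other 1 of the libraries compared, as the 6 left-out fits gave log2 1.01 to 1.04. The 8 other settings gave 0.97 to 1.01. The median log2 fold change of the 9 genes was 1.77, 2.37, and 1.26 at 4, 8, and 24 h, and that of all tested genes was -0.05, -0.05, and -0.02.

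**Figure D1:**
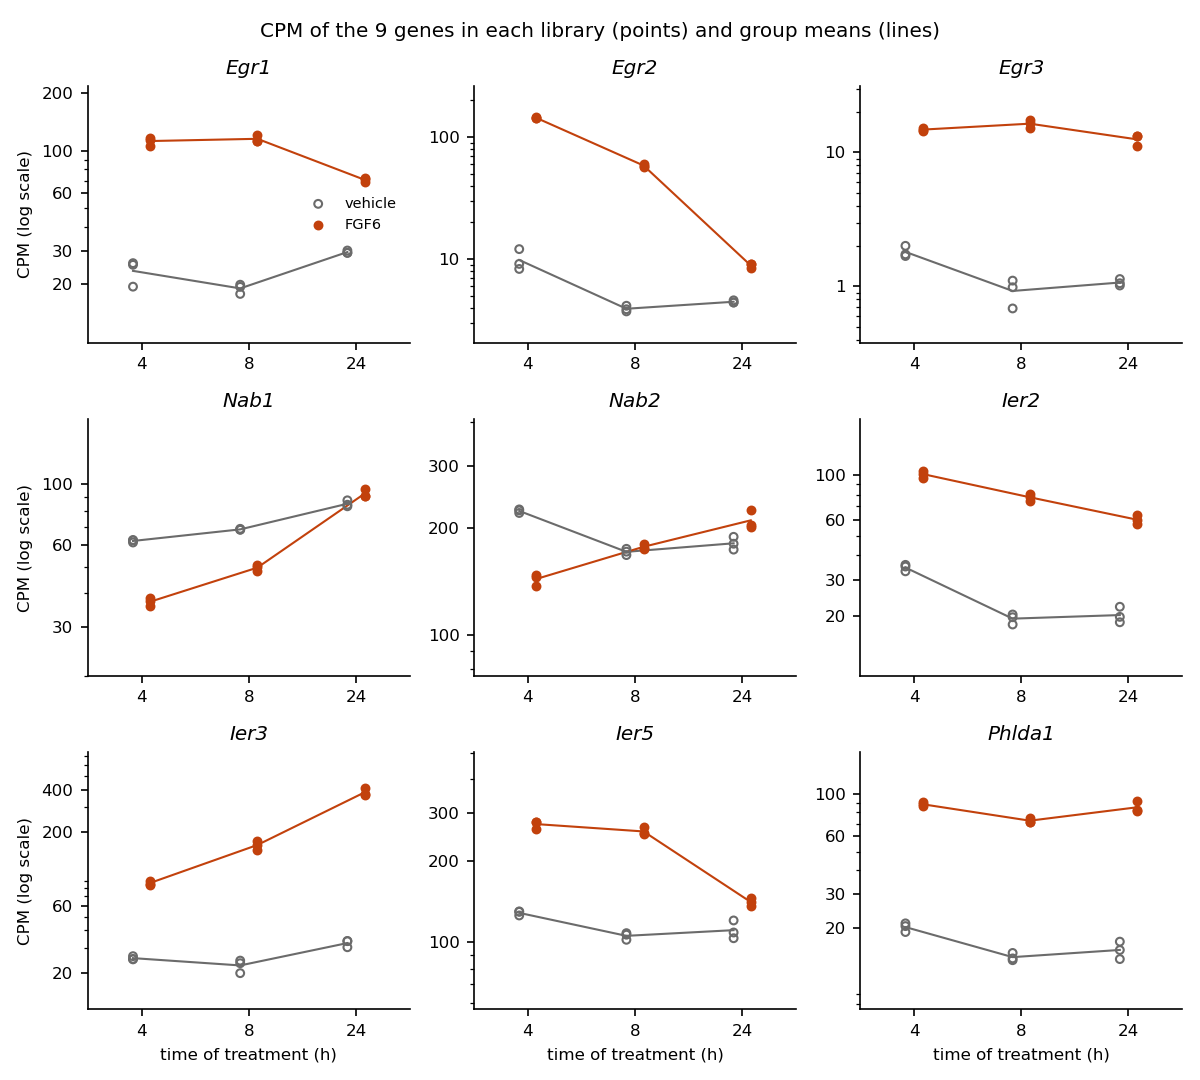
CPM of each of the 9 genes (y axis, log scale with its own range per panel) at 4, 8, and 24 h (x axis) in each library, with vehicle as open and FGF6 as filled points and lines through the group means of 3 libraries. *Egr2* with FGF6 falls from 143 to 8.91 CPM, *Ier3* with FGF6 climbs from 87.1 to 383 CPM, and the *Nab1* and *Nab2* lines start below vehicle and end above it.

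*Egr2* encodes the zinc-finger factor also known as KROX20 and had the largest rise of the 9 at 4 h. Its gene lies on chromosome 10 at 67535475 to 67542188, plus strand (GRCm38, GENCODE M21). In vehicle-treated cells, the 3 libraries had 9.18, 12.1, and 8.35 CPM at 4 h, 3.76, 3.91, and 4.18 CPM at 8 h, and 4.45, 4.43, and 4.62 CPM at 24 h. With FGF6, they had 142, 142, and 145 CPM at 4 h, 60.6, 57.7, and 56.8 CPM at 8 h, and 9.12, 8.43, and 9.18 CPM at 24 h. The FGF6 libraries thus fell steeply with time, and those of 24 h were as low as vehicle libraries of 4 h while still above the vehicle libraries of their own time. The log2 fold change was 3.85 (SE 0.07, adjusted p = 5.99e-24) at 4 h, 3.89 (SE 0.09, adjusted p = 1.27e-22) at 8 h, and 0.99 (SE 0.11, adjusted p = 8.99e-09) at 24 h. The 24 h value is 1.98-fold, just under the 2-fold line. Because *Egr2* fell in both arms between 4 and 8 h, its fold change stayed level while its mRNA dropped.

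The CArG box is the sequence bound by SRF, and the *Egr2* start sites are shown because they hold it. RefSeq (GRCm38) gave upstream sequence for 5 of the 9 genes, with 5 alternative starts for *Egr2*, and none was used here for *Egr1*, *Egr3*, *Ier2*, or *Phlda1*. A CArG box (a pair of C, 6 bases of A or T, a pair of G, the same motif on both strands) was found in the 250 bases before 4 of the 5 *Egr2* starts, and in 1.467% of all 32851 such windows. Of these windows, 3 overlap and share 1 box, and the fourth holds another. Neither of the windows printed below overlaps a GENCODE exon of *Egr2*, and both lie in an intron of the transcripts that start furthest upstream. Capitals mark the CArG box, which ends 63 bases before the RefSeq start in each.

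Egr2 upstream window, chr10:67537619-67537868, plus strand: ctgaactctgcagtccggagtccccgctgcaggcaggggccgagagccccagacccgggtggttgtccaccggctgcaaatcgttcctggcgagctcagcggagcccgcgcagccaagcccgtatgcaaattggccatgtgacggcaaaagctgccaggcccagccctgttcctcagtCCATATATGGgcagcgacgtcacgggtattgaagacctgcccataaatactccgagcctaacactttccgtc
Egr2 upstream window, chr10:67537316-67537565, plus strand: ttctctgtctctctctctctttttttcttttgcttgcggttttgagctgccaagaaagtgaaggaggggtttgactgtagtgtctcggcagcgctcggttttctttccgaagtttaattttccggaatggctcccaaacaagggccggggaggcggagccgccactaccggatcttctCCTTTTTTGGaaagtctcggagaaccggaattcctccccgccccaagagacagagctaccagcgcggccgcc

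*Egr1*, the founding member of the family and a factor that growth factors induce in most cell types, is on chromosome 18 (34859823 to 34864984, plus strand). Vehicle libraries had 25.3, 25.8, and 19.5 CPM at 4 h, 19.4, 17.8, and 19.9 CPM at 8 h, and 30.1, 29.3, and 29.3 CPM at 24 h. FGF6 libraries had 117, 106, and 115 CPM at 4 h, 122, 112, and 113 CPM at 8 h, and 71.3, 68.8, and 71.8 CPM at 24 h. Every FGF6 library was thus over the highest vehicle library of any time. The difference was 4.78-fold at 4 h (log2 2.26, SE 0.07, adjusted p = 1.15e-19), 6.08-fold at 8 h (log2 2.60, SE 0.07, adjusted p = 5.27e-21), and 2.39-fold at 24 h (log2 1.26, SE 0.07, adjusted p = 6.83e-15).

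*Egr3*, a close relative with the same type of DNA-binding domain (chromosome 14, 70077203 to 70082614, plus strand), was the least abundant of the 9 in vehicle-treated cells. Its 9 vehicle libraries held between 20 and 65 counts. They came to 1.69, 2.01, and 1.74 CPM at 4 h, 1.10, 0.985, and 0.685 CPM at 8 h, and 1.02, 1.06, and 1.14 CPM at 24 h. FGF6 libraries had 14.5, 14.6, and 15.4 CPM at 4 h, 15.2, 16.6, and 17.4 CPM at 8 h, and 11.1, 13.3, and 13.2 CPM at 24 h. Over all 3 times the level with FGF6 stayed between 11.1 and 17.4 CPM, and the highest vehicle library had 2.01 CPM. The log2 fold change was 3.03 (SE 0.11, adjusted p = 1.43e-17), 4.13 (SE 0.13, adjusted p = 1.34e-19), and 3.55 (SE 0.13, adjusted p = 3.34e-18) at 4, 8, and 24 h, and its standard errors were the largest of the 9 at each time.

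To compare the factors with each other, CPM was divided by the length of the merged exons of each gene in kb. On this scale the summed level of the 3 EGR factors was 8.57 ± 1.30 CPM per kb in vehicle-treated cells at 4 h and 70.6 ± 1.54 with FGF6 (SD, n = 3 here and below). It was 5.62 ± 0.245 against 46.7 ± 1.45 at 8 h and 8.16 ± 0.0886 against 21.2 ± 0.436 at 24 h. The make-up of the sum changed along with its size. *Egr2* contributed 33.8% ± 2.77 in vehicle-treated cells and 59.6% ± 0.988 in FGF6-treated cells at 4 h, 20.7% ± 1.09 and 36.8% ± 0.331 at 8 h, and 16.2% ± 0.428 and 12.4% ± 0.413 at 24 h. *Egr1* was the largest contributor in every group except FGF6 at 4 h. *Egr3* contributed 4.77% ± 0.129 with FGF6 at 4 h and 13.4% ± 1.33 at 24 h, when its level did not separate from that of *Egr2*.

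**Figure D2:**
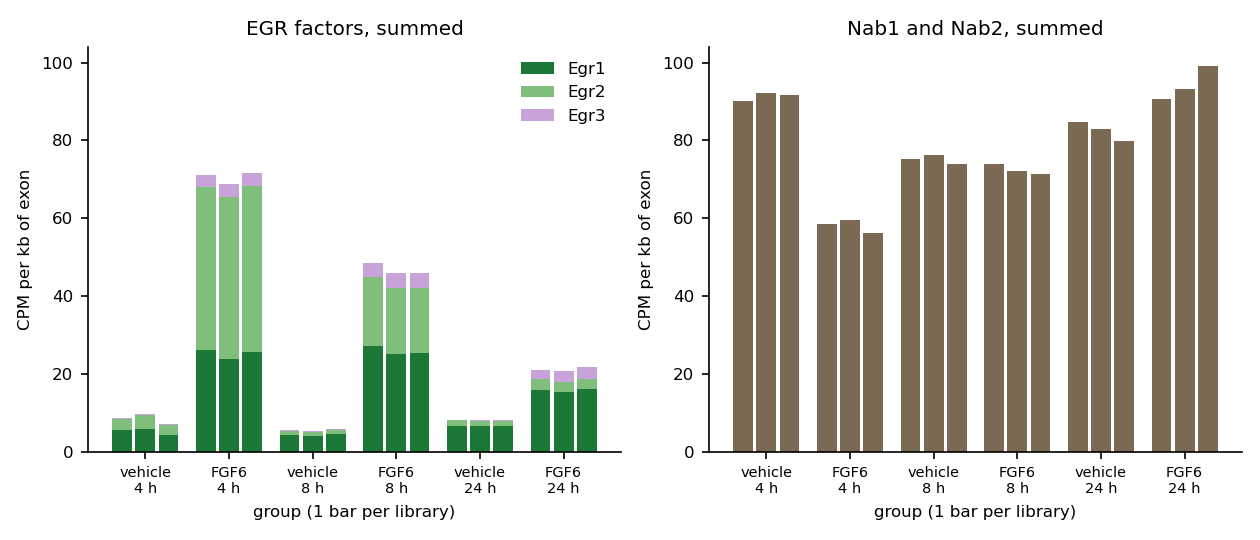
Left, CPM per kb of exon of *Egr1*, *Egr2*, and *Egr3* stacked for each library (1 bar per library, 3 per group), and right, the sum of *Nab1* and *Nab2* on the same scale. The EGR bars are tallest with FGF6 at 4 h (70.6 on average) and the NAB bars are shortest in the same 3 libraries (58.0).

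The co-repressors went the other way at 4 h, the first time sampled. *Nab1*, which is broadly expressed, lies on chromosome 1 (52457294 to 52500679, minus strand). It had 61.2, 62.5, and 62.3 CPM in the vehicle libraries at 4 h, 68.3, 68.1, and 68.7 CPM at 8 h, and 83.0, 87.2, and 84.1 CPM at 24 h. In FGF6-treated cells it had 35.9, 37.4, and 38.3 CPM at 4 h, 50.0, 50.7, and 48.0 CPM at 8 h, and 90.3, 95.8, and 90.7 CPM at 24 h. The FGF6 libraries lay below vehicle at 4 and 8 h and slightly above it at 24 h. The log2 fold change was -0.74 (SE 0.04, adjusted p = 2.11e-14), -0.46 (SE 0.04, adjusted p = 6.61e-11), and 0.12 (SE 0.04, adjusted p = 0.00468).

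*Nab2*, which is known as an EGR-induced feedback repressor, lies on chromosome 10 (127660918 to 127668568, minus strand). It had 221, 226, and 225 CPM in vehicle libraries at 4 h, 172, 175, and 168 CPM at 8 h, and 189, 181, and 174 CPM at 24 h. In FGF6 libraries, *Nab2* had 146, 148, and 138 CPM at 4 h, 181, 175.5, and 176 CPM at 8 h, and 201, 205, and 226 CPM at 24 h. It was therefore lower at 4 h (log2 -0.64, SE 0.04, adjusted p = 4.28e-13) and higher at 24 h (log2 0.22, SE 0.04, adjusted p = 2.99e-05). The difference at 8 h, log2 0.05 with a 95% confidence interval from -0.03 to 0.13, was not called (adjusted p = 0.295), although the 3 FGF6 libraries all lay above the vehicle libraries, by a margin as small as 175.5 against 175.2 CPM. With library sizes alone that difference was -0.0165 (adjusted p = 0.736), and when the libraries of the other times were left out of the fit it was 0.08 (adjusted p = 0.0287). Of the 2941 exonic bases of *Nab2*, 1241 are shared with genes on the opposite strand, and the strand setting of the counting is not given in the sources used here, so that reads of the 2 strands may not be told apart. The most highly expressed of these neighbours, *Stat6*, differed by -0.10, -0.08, and -0.27 (log2) at 4, 8, and 24 h, and *Nemp1* by 0.03, 0.09, and 0.36.

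Sites for EGR proteins are shown for *Nab1* because, of the 5 genes with upstream sequence, only its window held any. The EGR site GCGTGGGCG, searched on both strands, was present at 2 places in the 250 bases before its RefSeq start, and 0.5358% of all windows of that length held it. The related site GCGGGGGCG was present once, and 2.572% of windows held it. Of the 250 bases, 231 lie in the first exon of a longer GENCODE transcript of *Nab1*. The windows of *Ier3*, *Ier5*, and *Nab2* held none of the 7 motifs searched, which were these 2 EGR sites, the CArG box, the ETS core CCGGAAG, the CRE TGACGTCA, the AP-1 site TGAGTCA, and the TATA box TATAAA. The *Nab2* window, chr10:127666704-127666953 on the minus strand, lies inside the gene, whose upstream end in GENCODE is at 127668568. Sequence before that end was not searched, so an EGR site there would have been missed. A match of letters is a description and does not show that a factor bound there. Capitals mark the EGR site, on either strand.

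Nab1 site, chr1:52500572-52500598, minus strand: ccccgcggcCGCCCACGCcgggatctg
Nab1 site, chr1:52500540-52500566, minus strand: ctcggccgcGCGTGGGCGggagccgga
Nab1 site, chr1:52500469-52500495, minus strand: cggggcgggGCGGGGGCGgcggaggtg

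Set side by side, the summed NAB level was 91.4 ± 1.08 CPM per kb with vehicle and 58.0 ± 1.67 with FGF6 at 4 h, 75.1 ± 1.12 and 72.4 ± 1.25 at 8 h, and 82.4 ± 2.47 and 94.2 ± 4.35 at 24 h. The ratio of NAB to EGR mRNA on this scale was 10.8 ± 1.72 with vehicle and 0.823 ± 0.0402 with FGF6 at 4 h. At 8 h it was 13.4 ± 0.788 against 1.55 ± 0.0229, and at 24 h it was 10.1 ± 0.269 against 4.44 ± 0.139. NAB mRNA thus exceeded EGR mRNA in every library except those of FGF6 at 4 h, where it was lower in 3 of 3. Most of the NAB sum was *Nab2* (48.9 CPM per kb with FGF6 at 4 h). Because 1241 of its 2941 exonic bases are shared with opposite-strand genes and the strand setting is not given, its level per kb is uncertain. The ratios, this crossing, and the place of *Nab2* in the order of abundance below share that limit.

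*Ier3*, which encodes a short-lived regulator of cell survival and ERK signalling (chromosome 17, 35821684 to 35822923, plus strand), had a level that rose throughout with FGF6, as did those of *Nab1* and *Nab2*. Vehicle libraries had 25.1, 26.3, and 24.9 CPM at 4 h, 24.4, 19.9, and 23.4 CPM at 8 h, and 30.4, 33.6, and 33.7 CPM at 24 h. FGF6 libraries had 90.6, 84.5, and 86.1 CPM at 4 h, 174, 163, and 149 CPM at 8 h, and 409, 373, and 367 CPM at 24 h. The 3 FGF6 groups did not overlap each other, and each was above the one of the earlier time. The fold change was 3.42 at 4 h (log2 1.77, SE 0.06, adjusted p = 5.24e-18), 7.18 at 8 h (log2 2.84, SE 0.06, adjusted p = 1.93e-22), and 11.8 at 24 h (log2 3.56, SE 0.06, adjusted p = 7.65e-25).

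*Ier2* encodes a small nuclear protein (chromosome 8, 84661331 to 84662852, minus strand). Its vehicle libraries had 35.1, 35.8, and 33.2 CPM at 4 h, 20.3, 19.6, and 18.1 CPM at 8 h, and 22.1, 19.7, and 18.5 CPM at 24 h. With FGF6, there were 105, 102, and 96.6 CPM at 4 h, 80.3, 77.9, and 74.3 CPM at 8 h, and 56.8, 59.5, and 63.6 CPM at 24 h. The FGF6 level stepped down at each time, but it stayed above all vehicle libraries. Differences from vehicle were 2.92-fold (log2 1.54, SE 0.06, adjusted p = 5.03e-18), 4.01-fold (log2 2.00, SE 0.06, adjusted p = 5.56e-20), and 2.97-fold (log2 1.57, SE 0.06, adjusted p = 7.57e-18).

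*Ier5*, which encodes a protein of the same family as IER2 (chromosome 1, 155096361 to 155099636, minus strand), was the second most abundant of the 9 per kb in vehicle-treated cells. Vehicle libraries had 129.7, 130.1, and 126 CPM at 4 h, 108, 102, and 107 CPM at 8 h, and 121, 109, and 104 CPM at 24 h. FGF6 libraries had 278, 278, and 262 CPM at 4 h, 266, 253, and 251 CPM at 8 h, and 145, 136, and 141 CPM at 24 h. The FGF6 level was high at both early times and came near to vehicle at 24 h. The log2 fold change was 1.09 (SE 0.04, adjusted p = 3.84e-17), 1.28 (SE 0.04, adjusted p = 9.64e-19), and 0.34 (SE 0.04, adjusted p = 1.19e-07), so that a 2-fold rise at 4 and 8 h was followed by a 1.27-fold difference.

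*Phlda1* encodes a pleckstrin homology-like domain protein, and lies on chromosome 10 (111506286 to 111508645, plus strand). It had 21.1, 20.4, and 19.0 CPM in the vehicle libraries at 4 h, 14.8, 13.5, and 13.8 CPM at 8 h, and 16.9, 13.7, and 15.3 CPM at 24 h. The FGF6 libraries had 88.1, 86.4, and 90.3 CPM at 4 h, 74.7, 71.7, and 70.9 CPM at 8 h, and 82.1, 81.7, and 91.4 CPM at 24 h. *Phlda1* was therefore held at a raised level at all 3 times. The difference was 4.38-fold (log2 2.13, SE 0.06, adjusted p = 2.54e-20), 5.16-fold (log2 2.37, SE 0.06, adjusted p = 4.24e-21), and 5.57-fold (log2 2.48, SE 0.06, adjusted p = 9.10e-22). Of its 2205 exonic bases, 727 are shared with an opposite-strand gene, *Gm28592*, which had at most 1 count in any library.

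**Figure D3:**
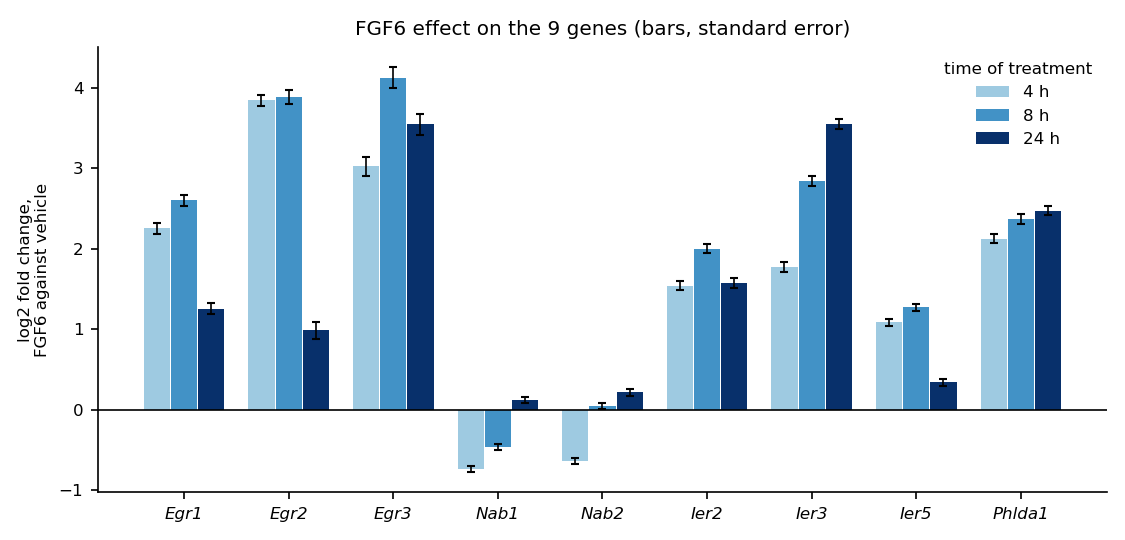
Log2 fold change of FGF6 against vehicle (y axis) for each of the 9 genes (x axis) at 4, 8, and 24 h, with standard errors from edgeR's quasi-likelihood fit over all 18 libraries. *Egr2* bars are level at 3.85 and 3.89 and then drop to 0.99, *Ier3* bars climb from 1.77 to 3.56, and the *Nab1* and *Nab2* bars cross from negative to positive.

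Order of abundance per kb also changed with FGF6. In all 3 vehicle groups *Nab2* came first (58.4 to 76.2 CPM per kb), *Ier5* second (32.3 to 39.2), and *Egr1*, *Egr2*, and *Egr3* came last in that order. With FGF6 at 4 h, *Ier5* (83.3 ± 2.86) and *Ier3* (77.0 ± 2.81) led and their libraries overlapped. They were followed by *Ier2* (66.5 ± 2.83), *Nab2* (48.9 ± 1.85), *Egr2* (42.1 ± 0.449), *Phlda1* (40.0 ± 0.879), *Egr1* (25.1 ± 1.24), *Nab1* (9.08 ± 0.292), and *Egr3* (3.36 ± 0.107), without overlap between neighbours. *Ier3* came first with FGF6 at 8 h (143 ± 10.8) and 24 h (339 ± 20.1). At 24 h with FGF6, *Ier5*, *Ier2*, and *Phlda1* overlapped as neighbours in the order, as did *Egr3* (2.84 ± 0.284) and *Egr2* (2.62 ± 0.122). Among vehicle groups, neighbours overlapped for *Ier2* and *Ier3* at 4 h and for *Phlda1* and *Egr1* at 24 h.

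Whether the FGF6 effect differed between times was tested as an interaction in the same fit. Between 4 and 8 h, 8 of the 9 genes were called with a more positive log2 effect at 8 h. Of all tested genes, 15.5% were called in that direction and 30.6% in either. The largest of these differences were those of *Egr3* (1.11, adjusted p = 0.000136), *Ier3* (1.07, adjusted p = 2.05e-09), and *Nab2* (0.69, adjusted p = 1.42e-09). The calls of *Ier5* (0.19, adjusted p = 0.0182) and *Phlda1* (0.24, adjusted p = 0.0389) were lost in 2 and 7 of the fits that left out 1 library, and that of *Phlda1* also with limma and voom (adjusted p = 0.0517). For *Egr2* the difference was 0.04, with a 95% confidence interval from -0.21 to 0.29, and was not called (adjusted p = 0.855). Without vehicle replicate 2 at 4 h, the highest of that group, it was -0.14 (adjusted p = 0.352).

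From 8 to 24 h the genes parted. The effect became smaller for *Egr2* (by log2 -2.90, adjusted p = 3.00e-14), *Egr1* (-1.35, adjusted p = 1.99e-11), *Ier5* (-0.93, adjusted p = 4.10e-12), and *Ier2* (-0.43, adjusted p = 0.000176). It moved upward for *Ier3* (0.71, adjusted p = 2.78e-07) and *Nab1* (0.58, adjusted p = 1.72e-09). *Phlda1* had a difference of 0.11 with an interval from -0.07 to 0.30 and was not called (adjusted p = 0.331). In all, 8 of the 9 were called, 3 upward and 5 downward, and 45.1% of all tested genes were. The calls of *Egr3* (-0.58, adjusted p = 0.0383) and *Nab2* (0.17, adjusted p = 0.0174) depended on the processing and on single libraries. That of *Egr3* was lost with limma and voom (adjusted p = 0.0867), library sizes alone (adjusted p = 0.0590), no filter on low counts (adjusted p = 0.0776), and only the groups compared (adjusted p = 0.0540), and in 7 of the left-out fits, among them those without vehicle replicate 3 at 8 h (-0.41, adjusted p = 0.164) and without vehicle replicate 3 at 24 h (-0.54, adjusted p = 0.0885). That of *Nab2* was lost with at least 10 counts in every library, where its adjusted p was just over the threshold, without vehicle replicate 3 at 24 h (0.14, adjusted p = 0.0569) and without FGF6 replicate 3 at 24 h (0.11, adjusted p = 0.0826).

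Against 4 h, the effect at 24 h was more positive for *Ier3* (1.78, adjusted p = 7.52e-15), *Nab1* (0.86, adjusted p = 9.20e-13), *Nab2* (0.85, adjusted p = 2.26e-12), and *Phlda1* (0.35, adjusted p = 0.00132). It was smaller for *Egr2* (-2.86, adjusted p = 4.58e-15), *Egr1* (-0.999, adjusted p = 2.03e-09), and *Ier5* (-0.74, adjusted p = 1.47e-10). *Ier2* gave 0.03 with an interval from -0.14 to 0.20 (adjusted p = 0.801), a value that moved to -0.01 without vehicle replicate 3 at 24 h. With *Egr3* (0.53, adjusted p = 0.0299), whose call was lost in 4 of the left-out fits, with limma and voom (adjusted p = 0.0879), and with no filter on low counts (adjusted p = 0.0800), 8 of the 9 were called, and 53.5% of all tested genes were.

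Changes within each arm show which side moved. In vehicle-treated cells 8 of the 9 genes were lower at 8 h than at 4 h and *Nab1* was higher (log2 0.14, adjusted p = 0.00362). Of all tested genes, 43.0% were called over that interval, and 21.7% were called lower. *Egr2* fell by 1.33 on the log2 scale (adjusted p = 1.60e-10), *Egr3* fell by 0.96 (adjusted p = 0.000112), and *Ier2* fell by 0.84 (adjusted p = 4.26e-11). *Egr1* fell by 0.31 (adjusted p = 0.00168), but its groups overlapped. Its vehicle replicate 3 had 19.5 CPM at 4 h and 19.9 CPM at 8 h. The call of *Ier3* (-0.17, adjusted p = 0.0497) was at the threshold. It was lost with limma and voom (adjusted p = 0.112), library sizes alone (adjusted p = 0.0909), upper-quartile factors (adjusted p = 0.0629), and only the groups compared (adjusted p = 0.0552). It was also lost without any 1 of the 3 vehicle libraries at 4 h (adjusted p = 0.0702, 0.151, and 0.0639 for replicates 1 to 3), and without vehicle replicates 2 (-0.09, adjusted p = 0.342) or 3 (adjusted p = 0.0504) at 8 h. In FGF6-treated cells over the same interval, where 48.2% of all tested genes were called, *Egr2* fell by 1.29 (adjusted p = 2.62e-15), *Ier2* fell by 0.38 (adjusted p = 1.06e-06), and *Phlda1* fell by 0.28 (adjusted p = 6.95e-05). *Ier3* (0.90, adjusted p = 1.32e-12), *Nab1* (0.41, adjusted p = 4.76e-09), and *Nab2* (0.30, adjusted p = 7.69e-07) rose. *Egr1* (0.04, interval -0.08 to 0.16), *Egr3* (0.15, interval -0.03 to 0.32), and *Ier5* (-0.09, adjusted p = 0.0820) were not called, and *Ier5* was called without FGF6 replicate 3 at 4 h (adjusted p = 0.0451) and without FGF6 replicate 1 at 8 h (adjusted p = 0.0469).

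From 8 to 24 h in vehicle-treated cells, *Egr1* (0.63, adjusted p = 1.22e-07), *Ier3* (0.53, adjusted p = 6.67e-07), and *Nab1* (0.31, adjusted p = 1.59e-07) rose and the other 6 were not called, with 49.2% of all tested genes called. Without vehicle replicate 3 at 24 h, 5 of the 9 were called higher, now with *Nab2* (0.11, adjusted p = 0.0427) and *Ier5* (0.12, adjusted p = 0.0384), and without vehicle replicate 2 at 24 h, 4 were. All 9 changed in FGF6-treated cells over that interval, as did 62.3% of all tested genes. The EGR factors fell, *Egr2* by 2.71 (adjusted p = 5.34e-20), *Egr1* by 0.71 (adjusted p = 2.10e-10), and *Egr3* by 0.39 (adjusted p = 0.000364). So did *Ier5* (-0.86, adjusted p = 5.85e-15) and *Ier2* (-0.37, adjusted p = 1.51e-06), while *Ier3* rose by 1.24 (adjusted p = 4.12e-16), *Nab1* by 0.90 (adjusted p = 2.78e-16), *Nab2* by 0.25 (adjusted p = 6.79e-06), and *Phlda1* by 0.23 (adjusted p = 0.000472). Time of treatment and time of collection cannot be told apart within an arm.

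**Figure D4:**
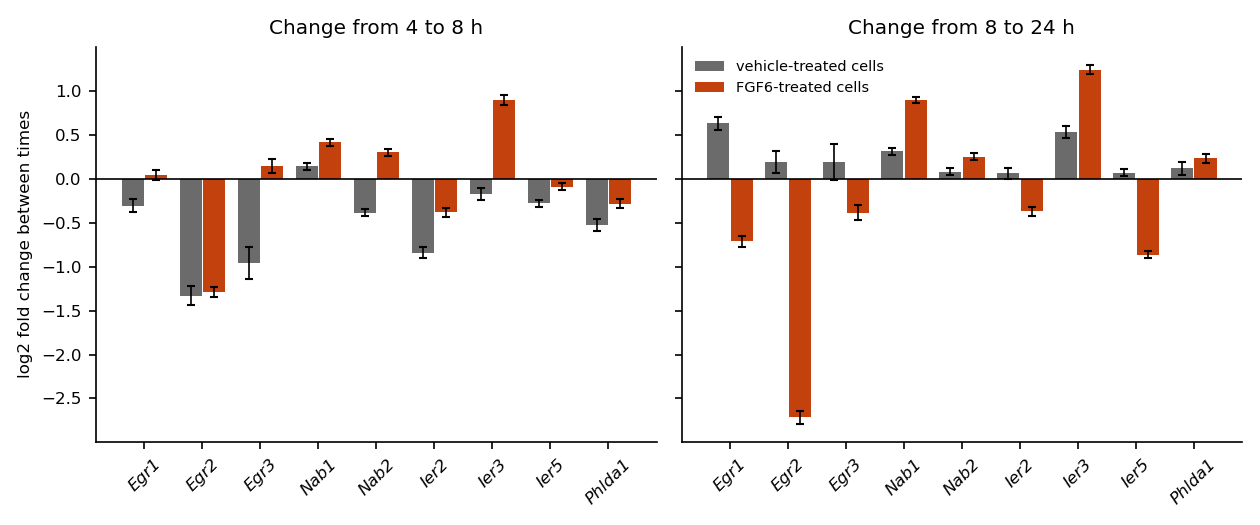
Log2 fold change between times within vehicle-treated (grey) and FGF6-treated (orange) cells for the 9 genes, from 4 to 8 h (left) and from 8 to 24 h (right), with standard errors of the edgeR fit. *Egr2* falls alike in both arms on the left (-1.33 and -1.29) and with FGF6 by 2.71 on the right, where *Ier3* with FGF6 rises by 1.24.

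Other genes of the pathway were counted as lists. The genes that report MAPK output comprise dual-specificity phosphatases and Sprouty proteins, which dampen the cascade, ETS factors of the PEA3 group, ephrin receptors, and cyclin D1. Of 9 such genes, 8 were tested, and all 8 were called higher by at least 2-fold at 4, 8, and 24 h. Of all tested genes, 4.96%, 7.39%, and 7.44% met that rule at the 3 times. The untested gene, *Epha4*, had 3 to 9 counts per library with vehicle and at most 3 with FGF6 at 4 h. At 24 h it had 1 to 3 counts with vehicle and no count with FGF6. The median log2 fold change of the list was 2.66, 3.22, and 3.20. *Dusp6*, the ERK phosphatase, differed by 3.91, 4.68, and 4.93, and *Etv4* by 2.35, 4.42, and 5.01 at the 3 times. *Spry2* (2.96, 2.86, and 1.92) and *Spry4* (3.12, 3.27, and 2.51) were lowest at 24 h. The median of this list at 24 h was near that at 8 h, whereas that of the 9 EGR-associated and immediate early genes was lower at 24 h.

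Among 24 other immediate early genes, 16 passed the test as higher and 5 as lower at 4 h, 17 and 5 at 8 h, and 11 and 8 at 24 h, with a median log2 fold change of 0.42, 0.52, and 0.05. The shares over all tested genes were 28.6% and 34.2%, 32.4% and 38.4%, and 35.9% and 37.9%, against 45.8% and 33.3% of this list at 24 h, where the difference was smallest. *Fosb* (2.75, 2.39, and 2.14) and *Jun* (1.75, 2.00, and 1.55), partners in AP-1, and the kinase *Plk3* (1.51, 1.86, and 2.16) were higher at each time. *Fos* was higher by 0.56 (adjusted p = 0.0358), 0.98 (adjusted p = 0.000315), and 0.81 (adjusted p = 0.00245). *Btg2*, an anti-proliferative gene, was lower (-0.88, -1.22, and -1.69), as was *Gadd45b*, a stress-response gene (-0.38, -1.02, and -1.69). These 24 genes therefore did not move in 1 direction at the times sampled, and their response before 4 h was not measured. At 4 h, 5 of the 24 rose by at least 2-fold, against 7 of the 9 followed here. Because both sets were chosen with earlier results of these data known, this contrast is only a description. The share of all tested genes was 4.96%.

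Of SRF and its cofactors, 6 genes, 3 were higher and 1 lower at 4 h, 3 and 2 at 8 h, and 4 and 1 at 24 h, with medians of 0.12, 0.18, and 0.27. In all, 62.8%, 70.8%, and 73.8% of all tested genes were called in either direction at the 3 times, and nothing particular to these 6 genes is read from their counts. The ternary complex factor *Elk3* was higher by 1.02, 1.05, and 1.33 on the log2 scale, while *Srf* was lower at 4 h (-0.29, adjusted p = 0.000221) and higher at 24 h (0.32, adjusted p = 7.48e-05). Of 10 genes described as EGR1 targets, 6 were higher and 3 lower at 4 h, 5 and 4 at 8 h, and 5 and 5 at 24 h, and their median was 0.15, 0.32, and -0.62. Against the 28.6% and 34.2% of all tested genes at 4 h, 32.4% and 38.4% at 8 h, and 35.9% and 37.9% at 24 h, nothing particular to this list is read from its counts. *Fgf2*, itself a fibroblast growth factor, was higher by 4.26, 4.99, and 4.07. *F3*, the coagulation initiator tissue factor, was lower, with differences of -1.46, -3.05, and -3.48, and *Thbs1*, an angiogenesis inhibitor, differed by 0.06 (adjusted p = 0.314) at 4 h and was lower at 8 h (-0.44) and 24 h (-2.68).

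Of 5 relatives of the 9 genes, *Egr4* had at most 1 count and *Wt1* at most 11 counts in any library, and neither was tested. *Ier5l* was higher at each time (0.68, 1.11, and 1.00) and *Phlda3*, a p53-induced inhibitor of AKT, was lower (-0.73, -0.86, and -1.34). *Phlda2* had no count in any vehicle library at 4 or 24 h, 3 to 6 counts with FGF6 at 4 h, and 13 to 24 counts with FGF6 at 24 h. At 8 h it had at most 2 counts with vehicle and at most 5 with FGF6, and was not called.

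**Figure D5:**
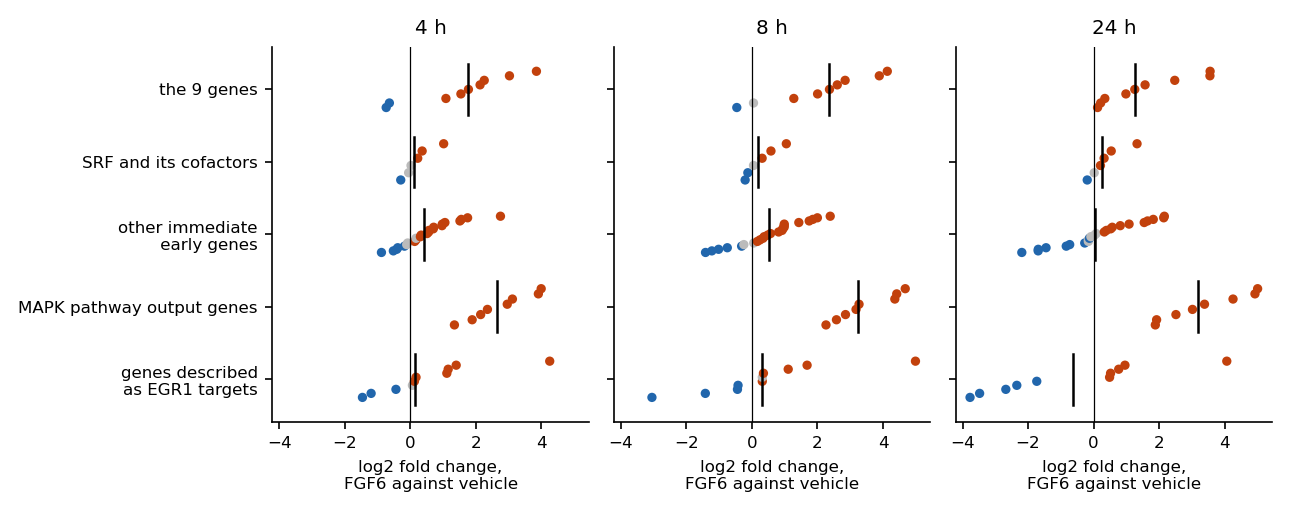
Log2 fold change of FGF6 against vehicle (x axis) for the genes of each list (y axis) at 4, 8, and 24 h, with 1 point per tested gene (orange higher, blue lower, grey not called) and a black bar at the list median. MAPK output genes lie to the right of 0 at every time (medians 2.66, 3.22, and 3.20), whereas the medians of the other 3 pathway lists stay between -0.62 and 0.52.

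For each of the 9 genes, the most similar profiles were sought by Pearson's r of log2 CPM over the 18 libraries, among 12298 genes with a mean of at least 1 CPM. The libraries fall into 6 groups, so that r mainly describes likeness of the group levels. Genes most like *Egr1* included *Lrig1* (r = 0.994) and *Calcrl*, *Egr2* was most like *Ppm1l* (r = 0.996), *Itpripl2*, and *Arhgef40*, and *Egr3* was most like *Pvr* (r = 0.994), *Tacc2*, and *Nup54*. *Nab1* had *Mpp1* (r = 0.995), *Myh10*, and *Zdhhc2* as its nearest genes. *Nab2* had *Tbc1d16* (r = 0.885), *Abca2*, and *Hoxa4*, the lowest likeness of the 9. *Ier2* followed *Fosl1* (r = 0.997), *Enc1*, and *Slc25a37*, and *Ier3* followed *Rbpj* (r = 0.996), *Sgms2*, and *Ercc1*. *Ier5* had *Pcdh19* (r = 0.993), *Itpripl2*, and *Ankrd50*, and *Phlda1* had *Mtpn* (r = 0.996), *Met*, and *Plk3*. *Itpripl2* was thus among the 3 nearest genes of both *Egr2* and *Ier5*, and none of the 9 was among the 3 nearest of another.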

How the data were processed

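RNA-seq was performed on brown preadipocytes treated with vehicle or FGF6. The authors aligned reads to GRCm38 with STAR, counted them per gene with featureCounts of the Subread package, and deposited 1 table of raw counts without normalization. Tool versions, annotation release, strand setting, and the treatment of multi-mapping reads are not given in the sources used here. Samples were grouped by the treatment and time in their labels.

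Genes were kept by filterByExpr over the 6 groups, TMM factors (0.951 to 1.05) were computed, and edgeR 4.0.16 in R 4.3.3 fitted its quasi-likelihood model to all 18 libraries without covariates. Benjamini-Hochberg adjustment ran over all 15071 genes. CPM are counts per the summed, TMM-scaled count of these genes, scaled to a common total. The standard error was derived from the F statistic. An exact permutation test of 3 against 3 libraries cannot go below 0.1. Symbols, positions, and exon lengths came from GENCODE M21, which named 98.5% of identifiers, and upstream sequences from RefSeq. All 9 genes were named throughout, list genes beside the counts of their lists, and the 3 most similar genes by r, of which 1 is not reported here. The genes and lists were chosen with earlier results of these data known.

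Alternatives were limma 3.58.1 with voom, DESeq2 1.42.0, upper-quartile factors or library sizes alone in place of TMM, a filter of at least 10 counts in each library or none, a fit to only the groups compared, the replicate number as a block, an adjusted p under 0.25, and leaving out each library. The scripts were tested on simulated data.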

Additional observations from a re-analysis of the deposited data

Results flagged for a closer look

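The FGF6 effect differed between times, by edgeR's interaction test with Benjamini-Hochberg adjustment over all genes, in the following values (log2 differences, 3 libraries per group). At 8 h against 4 h they were 0.35 for *Egr1* (adjusted p = 0.00721), 1.11 for *Egr3*, 0.27 for *Nab1* (adjusted p = 0.000446), 0.69 for *Nab2*, 0.46 for *Ier2* (adjusted p = 9.99e-05), 1.07 for *Ier3*, 0.19 for *Ier5* (adjusted p = 0.0182), and 0.24 for *Phlda1* (adjusted p = 0.0389). The call of *Ier5* was lost without vehicle replicate 2 at 8 h (adjusted p = 0.0576) and without FGF6 replicate 1 at 8 h (adjusted p = 0.0559). That of *Phlda1* was lost without vehicle replicates 1 (adjusted p = 0.106) or 2 (adjusted p = 0.0777) or FGF6 replicate 2 (adjusted p = 0.0575) at 4 h, and without vehicle replicates 2 (adjusted p = 0.105) or 3 (adjusted p = 0.0822) or FGF6 replicates 1 (adjusted p = 0.0873) or 2 (adjusted p = 0.0531) at 8 h.

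At 24 h against 8 h the values were -1.35 for *Egr1*, -2.90 for *Egr2*, -0.58 for *Egr3*, 0.58 for *Nab1*, 0.17 for *Nab2*, -0.43 for *Ier2*, 0.71 for *Ier3*, and -0.93 for *Ier5*. Besides the fit already named, the call of *Egr3* was lost without FGF6 replicates 2 (adjusted p = 0.0528) or 3 (adjusted p = 0.0617) at 8 h, without vehicle replicates 1 (adjusted p = 0.0551), 2 (adjusted p = 0.0740), or 3 (adjusted p = 0.0885) at 24 h, and without FGF6 replicate 1 at 24 h (adjusted p = 0.0668).

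At 24 h against 4 h the values were -0.999 for *Egr1*, -2.86 for *Egr2*, 0.53 for *Egr3*, 0.86 for *Nab1*, 0.85 for *Nab2*, 1.78 for *Ier3*, -0.74 for *Ier5*, and 0.35 for *Phlda1*. The call of *Egr3* was lost without vehicle replicate 2 at 4 h (adjusted p = 0.0973), vehicle replicates 1 (adjusted p = 0.0625) or 2 (adjusted p = 0.0584) at 24 h, or FGF6 replicate 2 at 24 h (adjusted p = 0.0552).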

How the results depend on the processing

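Of the 27 differences from vehicle, 26 kept their direction and call in all 8 other settings, and 27 in every fit that left out 1 library. The exception was *Nab2* at 8 h, with -0.0165 (adjusted p = 0.736) for library sizes alone, and with 0.08 (adjusted p = 0.0287) when only the groups compared were fitted. The cause was not tested. Library sizes alone moved the median of all genes by -0.06 at 8 h, the time of that exception, and by -0.10 at 4 h. Of 63 interaction and time values, 53 were unchanged in all settings. At an adjusted p under 0.25, 7397 genes in place of 4615 were called for the effect at 8 h against 4 h, and 7 in place of 3 of the 9 genes were higher in vehicle-treated cells at 24 h against 8 h, which follows from the looser threshold. Over the fits that left out 1 library, that last count lay between 3 and 5. Of 426 counts, 423 stayed within 1.5 times.

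The labels give same-numbered libraries only a shared number, and whether they were paired is not stated. Over 9 same-number pairs the correlation of their deviations lay between -0.03 and 0.05, and 8 of 18 libraries correlated best with their own number. With the number as a block, 9465 genes were called at 4 h in place of 9460, and *Ier5* in FGF6-treated cells at 8 h against 4 h was called (-0.09, adjusted p = 0.0384).

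Depth limits mainly *Egr3*, with as few as 20 counts in a vehicle library. Intervals cover the spread between libraries only.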
